A study of Mus musculus with 12 samples.

Results

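The 43 genes described here are interferon-stimulated effector genes of the mouse: the transcripts that a cell makes in quantity when interferon binds its receptors, and whose products sense viral nucleic acids, block viral replication or tune the response. They were chosen by name, from a list of 43 symbols matched to the Ensembl gene identifiers of the count tables, and the rule used no measured value except a minimum of 10 counts in at least 2 libraries. Every one of the 43 was found among the 47729 genes listed, and every one of the 43 passed that minimum.

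The series grew 6 cell lines from mice that carry BRAFV600E in hepatocytes, to ask what the BRAF inhibitor PLX4720 does to liver cancer and its spread. Lines M1, M2 and M3 came from lymph node metastases and lines T1, T2 and T3 from primary liver tumours, and the genotype given for each of them is BRAFV600E with p53 KO. Each line was grown in serum-containing medium and gave 1 library after 48 h with 2 µM PLX4720 and 1 after 48 h with DMSO, the solvent, so a replicate is a cell line (3 per site, 12 libraries). The DMSO cultures carry BRAFV600E and p53 KO as well, and no line without them and no culture given interferon was analysed here. The labels give neither strain nor age, and they do not say that the lines come from separate animals: the deposited tables of T3, M2 and M3 share a number. The lines also differed in markers of cell type. Of 9 hepatocyte markers, Alb, Apoa1, Ttr, Hnf4a, Cps1 and Tat were under 10 counts in every metastasis library, and the summed level of the 9 was 0.655 to 17.1 CPM in metastasis lines against 4008 to 6587 CPM in primary lines, most of it Krt8 and Krt18. In primary lines Hnf4a stood at 120.8 to 265.7 CPM and Alb at 0.132 to 15.8 CPM. The 8 fibroblast and stellate cell markers summed to 539 to 9028 CPM in metastasis lines and 1.91 to 32.2 CPM in primary lines. Of these 8, Lrat and Reln were under 10 counts in every metastasis library. The HCC label of the metastasis lines is therefore not borne out by these markers, and site of origin and cell type cannot be told apart in any comparison between M and T lines.

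Counted fragments ran from 31992512 to 39288748 per library. CPM below are counts scaled to library size with TMM factors, and TPM, used where levels of different genes are compared, are also divided by exon length. Mitochondrial genes held 3.67% of the counts of T3 with PLX4720 and 0.189% to 0.712% of the other 11 libraries. As a check of the treatment, 10 of 12 transcripts known to follow ERK signalling (Dusp, Spry, Etv and others) fell over all 6 lines and none rose (edgeR, and none at an unadjusted p under 0.05 either). By site, 8 of the 12 fell in metastasis lines and 5 of the 12 in primary lines. Dusp6, for example, changed by -1.95 ± 0.21 in metastasis and -0.91 ± 0.20 in primary lines (edgeR adjusted p = 0.000467 and 0.032). None of the 12 was called for the difference between sites (edgeR, with 4 lower in metastasis lines at an unadjusted p under 0.05), and the part of the drug's reach in the members' site differences was not tested. Since RNA was taken from whole cultures, fewer cells that express a gene and less RNA per cell cannot be told apart.

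Interferon signalling works as a relay. Type I interferons bind IFNAR1 and IFNAR2, the kinases JAK1 and TYK2 phosphorylate STAT2, and this factor enters the nucleus in a complex with IRF9 that binds a short DNA element, the interferon-stimulated response element (ISRE), in front of the effector genes. Type II interferon uses IFNGR1 and IFNGR2 and acts through another element, the gamma-activated site (GAS). Many of the effectors are themselves sensors or signalling proteins (RIG-I, MDA5, IRF7), so that the response feeds itself, and in liver cells it is known as a defence against hepatitis viruses.

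Most interferon-stimulated transcripts were higher with PLX4720 in the metastasis lines, and few were called in the primary lines. In metastasis lines 39 of the 43 rose and none fell (here and below a gene is called where its edgeR adjusted p is under 0.05; 1, Ifi209, was lower at an unadjusted p under 0.05), where 12.0% of the 16555 genes tested rose and 8.36% fell. Their median log2 change was 1.57, against 0.02 over all genes. In primary lines 7 of the 43 rose (Ddx58, Ifih1, Parp9, Parp10, Parp12, Parp14 and Rtp4) and 2 fell (Oasl1 and Ifi209), where 4.46% of all genes rose and 3.77% fell. Over all 6 lines, taken as the mean of the changes at both sites, 32 rose and 1 fell, against 14.5% and 12.7% of all genes. A large change at 1 site can give such a call, and 14 of the 43 were higher with the drug in each of the 6 lines. The count of calls in primary lines was 0 without T1 and 0 without T2 (edgeR, 12 and 11 at an unadjusted p under 0.05) and 4 without T3. Such fits hold fewer lines, and the share of all genes called in them is not given here. A loss of calls over all genes and a role of single lines were therefore not told apart.

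The filter on low counts bears on how the primary lines can be read. All 43 members passed it in the fit of 12 libraries, but 15 passed through the metastasis libraries alone (Ifit1, Ifit3b, Isg15, Oas2, Oas3, Oasl2, Ddx60, Zbp1, Ifi209, Mx1, Rsad2, Cmpk2, Trim30a, Sp100 and Ifi44), and their change in primary lines rests on few counts or on none. Of the 28 members that passed with the primary libraries alone, 7 rose and 1 fell in primary lines with a median log2 change of 0.39, and 26 rose in metastasis lines with a median of 1.34. Over all 6 lines 25 of those 28 rose and none fell, with a median of 0.88. Ifi209, which fell over all 6 lines, is not among them. The difference between the sites in the response to PLX4720, tested as an interaction, was called for 15 of the 43, each with the larger change in metastasis lines, and for none the other way (edgeR, with 34 and 0 at an unadjusted p under 0.05). All 15 are among those 28. Over all genes 1.85% were called in that direction and 1.09% in the other. Without T1, T2 or T3 the count of 15 was 4, 2 or 5, and without M2 or M3 it was 10 or 6. For these smaller fits too the share of all genes called is not given, so a general loss of calls was not told apart.

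**Figure D1:**
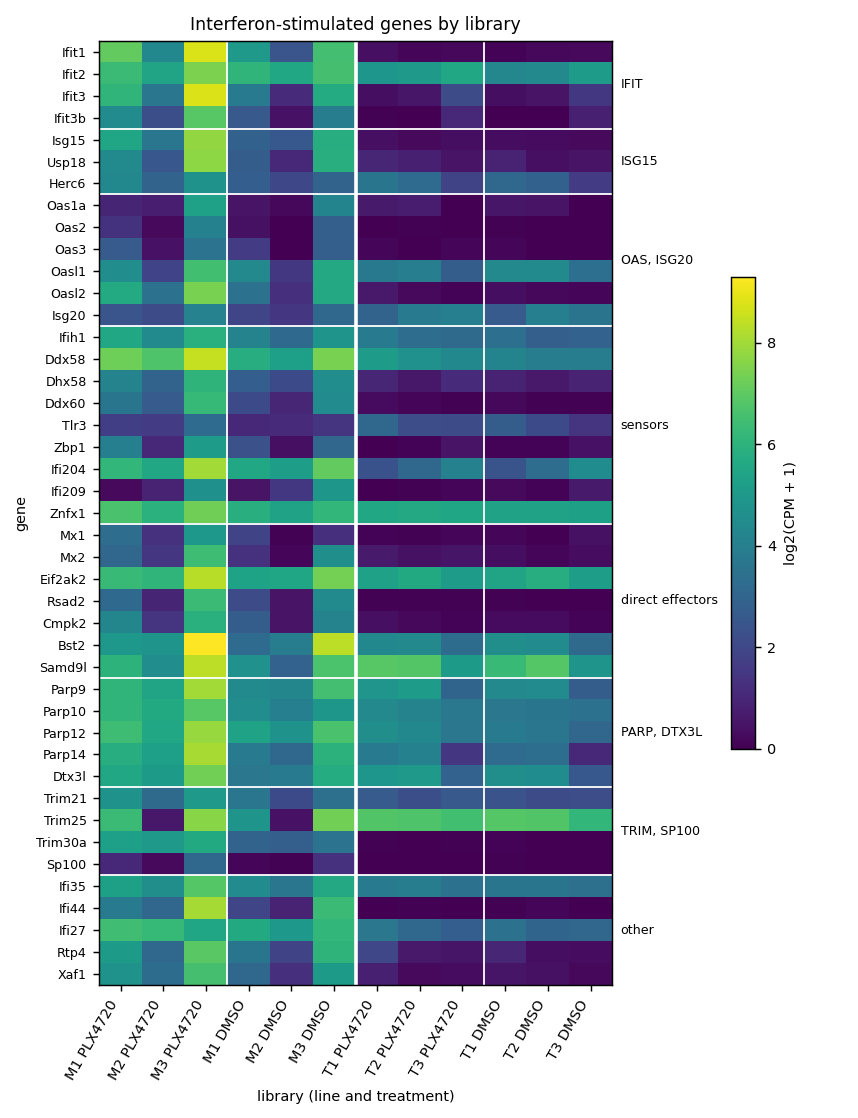
Level of each of the 43 genes in each library as log2(CPM + 1), metastasis lines at the left and primary lines at the right, PLX4720 left of DMSO within each site, genes grouped by role. Among the 6 libraries with PLX4720, that of M3 is the brightest for 42 of the 43 genes, and the 15 genes that passed the filter through metastasis libraries alone are at or near 0 in the primary lines.

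The DNA in front of the genes was read for the ISRE core GAAANNGAAA (TTTCNNTTTC on the other strand) and the GAS core TTCNNNGAA, which reads the same on both strands. RefSeq promoter windows of build GRCm38.p6, 250 bases before to 50 after the annotated start, were found for 31 of the 43 genes. The ISRE core was in 14 of the 31 (45.2%) and in 1079 of all 27025 genes with a window (3.99%). The GAS core was in 6 of the 31 (19.4%) and in 2582 of the 27025 (9.55%). Below are the windows of the 4 genes with a match that had the smallest p over all 6 lines among the members described library by library, written 5′ to 3′ along the gene's strand, with the ISRE core in capitals. They are Ddx58 (chr4:40239776-40240075, minus strand), Ifih1 (chr2:62646206-62646505, minus), Ifit3 (chr19:34583279-34583578, plus) and Trim21 (chr7:102565433-102565732, minus). The core began at position +3 in Ddx58, +33 in Ifih1, -156 and -122 in Ifit3, and +14 and +20, overlapping, in Trim21, counted from +1 at the start; none held the GAS core.
Ddx58: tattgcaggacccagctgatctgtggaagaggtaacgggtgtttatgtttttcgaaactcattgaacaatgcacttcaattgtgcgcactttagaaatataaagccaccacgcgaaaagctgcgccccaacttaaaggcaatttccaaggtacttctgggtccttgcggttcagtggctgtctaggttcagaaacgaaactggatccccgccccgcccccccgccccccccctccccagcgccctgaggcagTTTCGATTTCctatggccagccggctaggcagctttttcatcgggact
Ifih1: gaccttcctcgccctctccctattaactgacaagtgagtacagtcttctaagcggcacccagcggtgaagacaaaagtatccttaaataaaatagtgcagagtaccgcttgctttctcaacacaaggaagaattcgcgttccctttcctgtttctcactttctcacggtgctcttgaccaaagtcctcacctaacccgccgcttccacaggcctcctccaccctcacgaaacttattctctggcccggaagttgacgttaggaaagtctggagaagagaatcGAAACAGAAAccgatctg
Ifit3: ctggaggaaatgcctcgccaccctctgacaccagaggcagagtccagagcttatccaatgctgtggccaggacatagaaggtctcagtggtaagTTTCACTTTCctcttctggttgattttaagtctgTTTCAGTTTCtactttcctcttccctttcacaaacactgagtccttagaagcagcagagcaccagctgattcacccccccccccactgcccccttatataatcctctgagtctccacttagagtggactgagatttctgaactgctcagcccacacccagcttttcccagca
Trim21: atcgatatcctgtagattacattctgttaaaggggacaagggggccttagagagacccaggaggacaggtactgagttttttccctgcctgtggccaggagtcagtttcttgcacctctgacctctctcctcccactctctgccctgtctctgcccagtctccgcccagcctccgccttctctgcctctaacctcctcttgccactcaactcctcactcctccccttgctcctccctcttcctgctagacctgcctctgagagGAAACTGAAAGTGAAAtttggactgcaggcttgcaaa

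The core in the window did not sort the members by response: the median log2 change in metastasis lines was 1.48 for the 14 with it (0.80 to 2.86) and 1.5 for the 17 without it (-0.65 to 2.61). A match describes letters only, and windows without one, such as those of Herc6, Oasl2, Parp12 and Xaf1, say nothing of the factor.

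The IFIT genes lie side by side on chromosome 19 and encode proteins that bind viral RNA and stop its translation. In metastasis lines 3 of the 4 rose with PLX4720 (Ifit1, Ifit3 and Ifit3b) and Ifit2 had a log2 change of 0.34 ± 0.17 (SE). In primary lines none of the 4 was called (edgeR, 1 at an unadjusted p under 0.05, Ifit2). For Ifit1 and Ifit3b, which passed the filter through metastasis libraries alone, a missing call there says little. Ifit3 (ENSMUSG00000074896, chromosome 19, 34583531 to 34588731 of GRCm38), the partner that stabilises IFIT1 in human cells, stood at 66.4, 11.5 and 454 CPM in M1, M2 and M3 with PLX4720 and at 13.2, 1.22 and 51.6 CPM with DMSO. In the primary lines T1, T2 and T3 it stood at 0.261, 0.490 and 3.42 CPM with PLX4720 and 0.278, 0.395 and 1.86 CPM with DMSO. Every metastasis line was higher with the drug, M3 above the others by far, and T3 was the highest primary line under both treatments. The log2 change was 2.86 ± 0.18 in metastasis lines and 0.62 ± 0.29 in primary lines (SE, n = 3 lines each; edgeR adjusted p = 4.35e-05 and 0.221), and the difference of 2.24 ± 0.35 was called (adjusted p = 0.0154). That difference was no longer called without T1, T2 or T3 (adjusted p = 0.0509, 0.0685 and 0.07). Ifit3 and its neighbour Ifit3b are 98.0% identical over 1697 aligned transcript bases, so fragments can be split between them, and Ifit3b itself changed by 2.72 ± 0.25 in metastasis lines.

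ISG15 is a ubiquitin-like protein that is attached to other proteins. HERC6 is the ligase that attaches it in the mouse, and USP18 removes it and also restrains the interferon receptor. All 3 rose in metastasis lines, and none of the 3 was called in primary lines (edgeR, Herc6 alone at an unadjusted p under 0.05). Isg15 (ENSMUSG00000035692, chromosome 4, 156199424 to 156200818) stood at 44.1, 11.5 and 219 CPM in M1, M2 and M3 with PLX4720, against 6.39, 4.97 and 54.6 CPM with DMSO. Primary lines held 6 to 11 counts of it per library, 0.288, 0.163 and 0.267 CPM with PLX4720 and 0.251, 0.211 and 0.176 CPM with DMSO in T1, T2 and T3. The gene was thus close to silent in primary lines with or without the drug, and each metastasis line was above each primary line. Its change in metastasis lines was 2.02 ± 0.24 (edgeR adjusted p = 0.000759).

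Herc6 (ENSMUSG00000029798, chromosome 6, 57581000 to 57664632) was expressed at both sites, with 19.2, 6.85 and 26.1 CPM in M1, M2 and M3 with PLX4720 and 5.94, 3.06 and 6.85 CPM with DMSO. The primary lines T1, T2 and T3 held 11.1, 8.44 and 2.73 CPM with PLX4720 and 7.74, 6.40 and 2.12 CPM with DMSO. Every line was higher with the drug, and with DMSO the sites overlapped. Its log2 change was 1.61 ± 0.17 in metastasis and 0.43 ± 0.17 in primary lines (edgeR adjusted p = 0.000376 and 0.143), a difference of 1.18 ± 0.24 (adjusted p = 0.0354) that was not called without T1, T2, T3 or M3 (adjusted p = 0.129, 0.164, 0.103 and 0.113). Usp18 differed between sites too, by 1.51 ± 0.30 (edgeR adjusted p = 0.0358), with up to an adjusted p of 0.23 without T1, T3, M2 or M3.

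The OAS enzymes make the oligoadenylates that switch on RNase L, and ISG20 is an exonuclease. All of Oas1a, Oas2, Oasl1, Oasl2 and Isg20 rose in metastasis lines, Oas3 had a log2 change of 1.25 ± 0.41 (edgeR adjusted p = 0.0689), and in primary lines Oasl1 fell and the other 5 were not called. Among those 5, Oas2, Oas3 and Oasl2 passed the filter through metastasis libraries alone, so the missing call says little of them. Oasl2 (ENSMUSG00000029561, chromosome 5, 114896936 to 114912234), an OAS-like protein that in the mouse can still make oligoadenylates, stood at 50.6, 10.1 and 170.5 CPM in M1, M2 and M3 with PLX4720 and 10.2, 1.46 and 48.5 CPM with DMSO. It stood at 0.549, 0.191 and 0.0535 CPM in T1, T2 and T3 with PLX4720 and 0.278, 0.158 and 0.101 CPM with DMSO, from 2 to 21 counts a library. All metastasis libraries lay above all primary libraries, and the change in metastasis lines was 2.24 ± 0.19 (edgeR adjusted p = 0.00013).

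Oasl1 (ENSMUSG00000041827, chromosome 5, 114923240 to 114937915) lies next to Oasl2 and behaved otherwise. Its product is known in the mouse for holding back translation of Irf7. It stood at 22.4, 2.70 and 89.4 CPM in M1, M2 and M3 with PLX4720 and 19.7, 1.87 and 47.8 CPM with DMSO. In T1, T2 and T3 it stood at 12.4, 14.8 and 5.78 CPM with PLX4720 and 19.97, 20.9 and 9.65 CPM with DMSO. It was lower with the drug in all 3 primary lines and higher in all 3 metastasis lines. The log2 change was 0.55 ± 0.15 in metastasis and -0.64 ± 0.14 in primary lines (edgeR adjusted p = 0.0335 and 0.0338), and the difference was 1.18 ± 0.21 (adjusted p = 0.0232). The rise in metastasis lines was not called without T1, T2, T3, M2 or M3 (adjusted p = 0.0672, 0.067, 0.0559, 0.118 and 0.274), the fall in primary lines was not called without T1, T2, T3 or M2 (adjusted p = 0.234, 0.119, 0.153 and 0.0585), and the difference was not called without T1, T2, T3, M2 or M3 (adjusted p = 0.0978, 0.0873, 0.0864, 0.0731 and 0.0851).

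Of the 9 sensors of foreign RNA and DNA, 8 rose in metastasis lines, and in primary lines 2 rose (Ddx58 and Ifih1) and 1 fell (Ifi209). Ddx60, Zbp1 and Ifi209 passed the filter through metastasis libraries alone, so their results in primary lines rest on few counts. Ddx58 (ENSMUSG00000040296, chromosome 4, 40203773 to 40239828) encodes RIG-I, which recognises RNA with a 5′ triphosphate. It stood at 151, 106 and 360.1 CPM in M1, M2 and M3 with PLX4720, against 54.6, 37.3 and 173 CPM with DMSO. Levels in T1, T2 and T3 were 33.6, 25.3 and 19.2 CPM with PLX4720 and 17.5, 14.3 and 14.0 CPM with DMSO. It was higher with the drug in 6 of 6 lines, and at each treatment the metastasis lines lay above the primary lines. The change was 1.34 ± 0.12 in metastasis and 0.74 ± 0.12 in primary lines (edgeR adjusted p = 0.000202 and 0.0143), and the difference of 0.60 ± 0.17 was not called (adjusted p = 0.123). The call in primary lines was lost without T1 or T2 (adjusted p = 0.111 and 0.0739).

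Ifih1 (ENSMUSG00000026896, chromosome 2, 62595798 to 62646255) encodes MDA5, which recognises long double-stranded RNA. Its levels were 45.5, 20.2 and 59.1 CPM in M1, M2 and M3 with PLX4720 and 16.9, 8.00 and 27.1 CPM with DMSO. In the primary lines T1, T2 and T3 they were 13.2, 8.96 and 8.26 CPM with PLX4720 and 9.64, 6.05 and 6.63 CPM with DMSO. Again 6 of 6 lines were higher with the drug. The change was 1.29 ± 0.11 in metastasis and 0.45 ± 0.12 in primary lines (edgeR adjusted p = 0.000169 and 0.0494), with a difference of 0.85 ± 0.16 (adjusted p = 0.0284). The call in primary lines sat at the threshold and was lost without T1, T2, T3 or M2 (adjusted p = 0.247, 0.2, 0.095 and 0.0572), and that of the difference was lost without T1, T2, T3, M2 or M3 (adjusted p = 0.116, 0.0995, 0.094, 0.0904 and 0.0569).

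Ifi204 and Ifi209 belong to a mouse family of PYHIN proteins, some of which bind DNA, and lie close together on chromosome 1. Ifi204 (ENSMUSG00000073489, chromosome 1, 173747293 to 173766943) stood at 69.9, 46.1 and 255 CPM in M1, M2 and M3 with PLX4720 and 46.2, 36.0 and 133 CPM with DMSO. In T1, T2 and T3 it stood at 4.10, 7.84 and 16.04 CPM with PLX4720 and 4.40, 8.92 and 22.2 CPM with DMSO. All metastasis lines were higher and all primary lines lower with the drug. The change was 0.64 ± 0.12 in metastasis lines (edgeR adjusted p = 0.00747) and -0.27 ± 0.13 in primary lines (adjusted p = 0.242, not called), and they differed by 0.90 ± 0.18 (adjusted p = 0.0359). Without M3 the change in metastasis lines was not called (adjusted p = 0.0544), and the difference was not called without T1, T2, T3 or M3 (adjusted p = 0.0989, 0.145, 0.148 and 0.116).

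Ifi209 (ENSMUSG00000043263, chromosome 1, 173630917 to 173647928) was the 1 member that fell over the whole set of lines (-1.74 ± 0.34 as log2, ± SE, with an edgeR adjusted p of 0.00736). Its levels were 0.192, 0.849 and 24.2 CPM in M1, M2 and M3 with PLX4720 and 0.418, 1.84 and 29.1 CPM with DMSO. T1, T2 and T3 held 0, 1 and 3 counts with PLX4720 and 6, 2 and 24 with DMSO. M3 held nearly all of the transcript at both treatments, and the fall in primary lines (adjusted p = 0.0325) rested on 4 counts with PLX4720 against 32 with DMSO, most of them from T3. It was not called without T1, T2 or T3 (adjusted p = 0.16, 0.0736 and 0.25), nor over all 6 lines without T3 (adjusted p = 0.0873). How fragments that other genes of this family could share were assigned was set by the authors' counting.

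The direct antiviral effectors were Mx1 and Mx2 (GTPases that trap viral particles), Eif2ak2, Rsad2 (viperin), Cmpk2 (a nucleotide kinase, next to Rsad2 on chromosome 12), Bst2 and Samd9l. All 7 rose in metastasis lines, and none of the 7 was called in primary lines (edgeR, 1 at an unadjusted p under 0.05, Mx2). Mx1, Rsad2 and Cmpk2 passed the filter through metastasis libraries alone, so a missing call in primary lines says little of them. Bst2 (ENSMUSG00000046718, chromosome 8, 71534264 to 71537437), which encodes tetherin and holds budding virus at the cell surface, had the highest mean level of the 43 genes, 760 TPM in metastasis lines with PLX4720 and 387 with DMSO, and 59.5 TPM in primary lines with PLX4720 and 61.1 with DMSO. Most of that was M3: the CPM were 30.3, 26.9 and 631 in M1, M2 and M3 with PLX4720 and 8.62, 14.5 and 328 with DMSO. In the primary lines T1, T2 and T3 they were 19.3, 19.9 and 8.74 with PLX4720 and 23.0, 21.7 and 8.29 with DMSO. With DMSO, M1 and M2 lay within the range of the primary lines. Its change was 1.20 ± 0.17 in metastasis and -0.11 ± 0.17 in primary lines (edgeR adjusted p = 0.00156 and 0.73), a difference of 1.30 ± 0.24 (adjusted p = 0.0245) that was not called without T1, T2, T3 or M3 (adjusted p = 0.0989, 0.108, 0.052 and 0.0504).

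Samd9l (ENSMUSG00000047735, chromosome 6, 3372257 to 3399572), a factor that limits translation and poxvirus growth, did not separate the sites under DMSO. It stood at 64.0, 22.6 and 330.4 CPM in M1, M2 and M3 with PLX4720 and 25.4, 6.52 and 101 CPM with DMSO. T1, T2 and T3 had 117, 111 and 33.0 CPM with PLX4720 and 75.6, 114 and 27.1 CPM with DMSO. Under either treatment the sites overlapped, and T2 was slightly lower with the drug. The change was 1.60 ± 0.14 in metastasis and 0.29 ± 0.14 in primary lines (edgeR adjusted p = 0.000173 and 0.214), and the difference of 1.32 ± 0.19 (adjusted p = 0.0126) was not called without T2 or M3 (adjusted p = 0.0558 and 0.0504).

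Eif2ak2 (ENSMUSG00000024079, chromosome 17, 78852564 to 78882573) encodes PKR, the kinase that stops translation when it binds double-stranded RNA. Its levels were 75.6, 66.6 and 312 CPM in M1, M2 and M3 with PLX4720 and 41.3, 43.5 and 164 CPM with DMSO. They were 38.6, 49.9 and 34.3 CPM in T1, T2 and T3 with PLX4720 and 41.7, 55.0 and 35.9 CPM with DMSO. With DMSO, M1 and M2 sat among the primary lines, and with PLX4720 every metastasis line lay above them. The change was 0.80 ± 0.09 in metastasis and -0.11 ± 0.09 in primary lines (edgeR adjusted p = 0.00043 and 0.48). They differed by 0.91 ± 0.12 (adjusted p = 0.00924), which was not called without T1 or T2 (adjusted p = 0.0548 and 0.068).

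**Figure D2:**
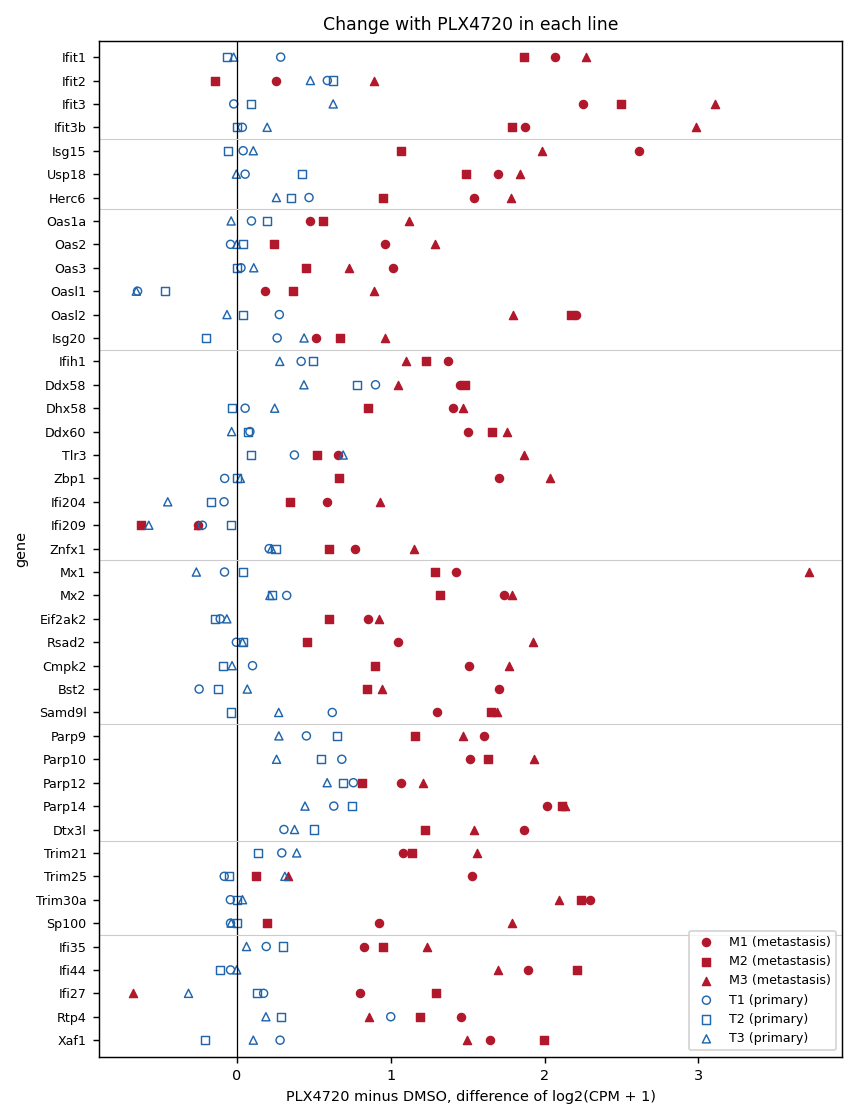
Change with PLX4720 in each line, as the difference of log2(CPM + 1) from DMSO, for the 43 genes grouped by role. Filled red symbols are metastasis lines and open blue symbols primary lines. For 23 of the 28 genes that passed the filter with the primary libraries alone, every red symbol lies right of every blue one; the blue symbols of the other 15 are held near 0 by the scale.

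The PARP genes rose at both sites, though none of their calls in primary lines held in each fit without 1 line. The PARP proteins here add ADP-ribose to proteins or, as PARP9 does, act in a complex with the ubiquitin ligase DTX3L. All 5 rose in metastasis lines, and 4 of the 5 (all but Dtx3l) rose in primary lines too. There Parp9 was not called without T1, T2 or T3, nor Parp10 without T1, T2, T3 or M2 (edgeR adjusted p up to 0.19 and 0.262). Parp14 (ENSMUSG00000034422, chromosome 16, 35832874 to 35871544) had the smallest p of the 43 genes over all 6 lines, with a change of 1.46 ± 0.07 (edgeR adjusted p = 2.46e-05). It stood at 55.0, 36.8 and 274 CPM in M1, M2 and M3 with PLX4720 and 12.9, 7.74 and 61.6 CPM with DMSO. The primary lines T1, T2 and T3 held 13.6, 16.1 and 1.76 CPM with PLX4720 and 8.44, 9.19 and 1.03 CPM with DMSO. Each line was higher with the drug, and with PLX4720 the metastasis lines lay above the primary lines. The change was 2.16 ± 0.09 in metastasis and 0.76 ± 0.10 in primary lines (edgeR adjusted p = 8.95e-06 and 0.00577). The difference, 1.41 ± 0.13 (adjusted p = 0.00298), was the 1 difference between sites among the 15 that was called in each of the 6 fits without 1 line. The call in primary lines was lost without T1 or T2 (adjusted p = 0.0555 and 0.0551).

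Parp12 (ENSMUSG00000038507, chromosome 6, 39086410 to 39118349) had these levels: 85.4, 46.5 and 231 CPM in M1, M2 and M3 with PLX4720 and 40.1, 26.0 and 99.3 CPM with DMSO. In T1, T2 and T3 they were 23.4, 19.1 and 11.8 CPM with PLX4720 and 13.4, 11.4 and 7.51 CPM with DMSO. Every line was higher with the drug, and at each treatment the metastasis lines lay above the primary lines. The change was 1.05 ± 0.10 in metastasis and 0.73 ± 0.10 in primary lines (edgeR adjusted p = 0.000217 and 0.00711), and the difference of 0.32 ± 0.14 was not called (adjusted p = 0.328). In primary lines it was not called without T1 or T2 (adjusted p = 0.0742 and 0.0517). Parp9 and Dtx3l share 458 exon bases on opposite strands and Parp10 shares 205 with Plec on the same strand, and the recorded counting command has no strand option, so fragments of these overlaps are uncertain.

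Among the TRIM ubiquitin ligases and the nuclear body protein Sp100, all 4 rose in metastasis lines and none was called in primary lines (edgeR, none at an unadjusted p under 0.05). Trim30a and Sp100 held 0 to 2 counts in each primary library, so a call there was hardly possible. Trim21 (ENSMUSG00000030966, chromosome 7, 102557922 to 102565469), the cytosolic receptor for antibody-bound virus, stood at 25.6, 8.28 and 30.9 CPM in M1, M2 and M3 with PLX4720 and 11.6, 3.21 and 9.82 CPM with DMSO. Levels in T1, T2 and T3 were 5.41, 3.76 and 5.00 CPM with PLX4720 and 4.23, 3.32 and 3.58 CPM with DMSO. It was higher with the drug in 6 of 6 lines. The change was 1.39 ± 0.15 in metastasis and 0.34 ± 0.15 in primary lines (edgeR adjusted p = 0.000411 and 0.197), and the difference of 1.05 ± 0.21 (adjusted p = 0.0364) was not called without T1, T2, T3, M2 or M3 (adjusted p = 0.147, 0.177, 0.0928, 0.107 and 0.131).

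Trim25 (ENSMUSG00000000275, chromosome 11, 88999376 to 89020293), which acts on RIG-I in human cells, was nearly absent from 1 line. M1, M2 and M3 had 79.6, 0.516 and 199.6 CPM with PLX4720 and 27.0, 0.387 and 158 CPM with DMSO, where the M2 values are 17 and 13 counts. T1, T2 and T3 had 109.5, 105 and 88.5 CPM with PLX4720 and 116, 108 and 71.1 CPM with DMSO. The other 10 libraries held 27.0 to 199.6 CPM. The genes on either side on chromosome 11 were present in M2, Coil at 18.4 CPM with PLX4720 and 21.4 with DMSO and Dgke at 10.2 and 12.0. In the other 10 libraries Coil held 9.79 to 30.7 CPM and Dgke 19.25 to 29.5, so M2 lay below that range for Dgke. The change of Trim25 in metastasis lines was 0.90 ± 0.24 (edgeR adjusted p = 0.0293), and it was not called without M1 or M2 (adjusted p = 0.177 and 0.0537). Over all 6 lines it was 0.48 ± 0.15 (adjusted p = 0.0482), not called without T1, T2, T3, M1 or M2 (adjusted p = 0.0868, 0.0824, 0.114, 0.14 and 0.0645).

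Of the 5 remaining members, 4 rose in metastasis lines (Ifi35, Ifi44, Rtp4 and Xaf1) and 1 rose in primary lines (Rtp4). Ifi44 held 0 to 4 counts in each primary library, so a call there was hardly possible. Rtp4 (ENSMUSG00000033355, chromosome 16, 23609919 to 23614222), a chaperone of receptors that also binds viral RNA, stood at 32.3, 7.52 and 119 CPM in M1, M2 and M3 with PLX4720 and 11.1, 2.74 and 65.2 CPM with DMSO. The primary lines T1, T2 and T3 held 2.95, 0.545 and 0.428 CPM with PLX4720 and 0.975, 0.263 and 0.252 CPM with DMSO. All 6 lines were higher with the drug, from a far lower level in primary lines. The changes were close, 1.26 ± 0.16 in metastasis and 1.30 ± 0.27 in primary lines (edgeR adjusted p = 0.000999 and 0.0255), with a difference of -0.03 ± 0.26 (adjusted p = 0.99). The call in primary lines rests on T1, which had 113 counts with PLX4720 and 35 with DMSO, and on T2: it was lost without T1 or T2 (adjusted p = 0.329 and 0.0747).

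Ifi35 (ENSMUSG00000010358, chromosome 11, 101448407 to 101458698), a partner of the NMI protein, stood at 38.5, 23.5 and 114 CPM in M1, M2 and M3 with PLX4720 and 21.2, 11.7 and 47.9 CPM with DMSO. Levels in T1, T2 and T3 were 13.0, 14.0 and 10.2 CPM with PLX4720 and 11.2, 11.2 and 9.73 CPM with DMSO. All 6 lines were higher with the drug, the primary lines by little. Its change was 1.04 ± 0.11 in metastasis and 0.20 ± 0.11 in primary lines (edgeR adjusted p = 0.000428 and 0.306). They differed by 0.84 ± 0.16 (adjusted p = 0.0284), not called without T1, T2, T3, M2 or M3 (adjusted p = 0.129, 0.112, 0.111, 0.0959 and 0.121).

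Ifi27 (ENSMUSG00000064215, chromosome 12, 103434211 to 103440239), a small hydrophobic protein, did not follow the rest. It stood at 86.2, 74.3 and 43.9 CPM in M1, M2 and M3 with PLX4720 and 49.1, 29.8 and 70.7 CPM with DMSO. T1, T2 and T3 had 11.9, 7.71 and 5.83 CPM with PLX4720 and 10.4, 6.95 and 7.48 CPM with DMSO. It was higher with the drug in M1, M2, T1 and T2 and lower in M3 and T3. The change was 0.49 ± 0.32 in metastasis and 0.00 ± 0.33 in primary lines, neither called (edgeR adjusted p = 0.319 and 1). M1 and M2, low for most members, held more Ifi27 than M3 with PLX4720.

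**Figure D3:**
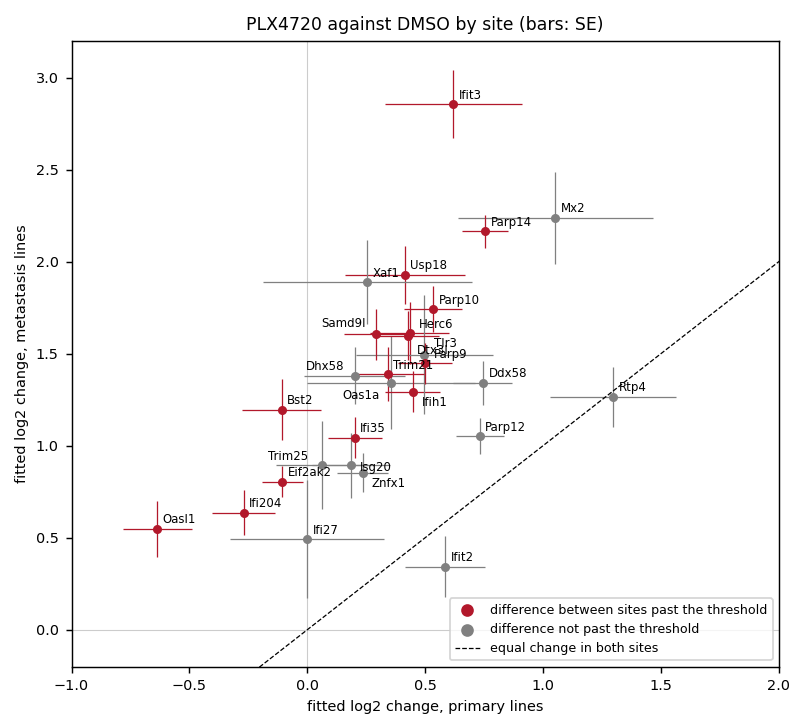
Fitted log2 change with PLX4720 in metastasis lines (vertical) against primary lines (horizontal) for the 28 genes that passed the filter with the primary libraries alone, with bars of 1 SE. The 15 red points, whose difference between sites was called, lie above the dashed line of equal change, Ifit3 farthest from it at 2.24, and Rtp4 lies on the line.

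The change was then read line by line, as a difference of log2(CPM + 1). On that scale a gene near 0 CPM stays near 0 whatever the drug does, so the values below are for the 28 members that passed the filter with the primary libraries alone, beside the 15151 genes that did so. Their median change was 1.39, 1.04 and 1.22 in M1, M2 and M3 and 0.29, 0.21 and 0.26 in T1, T2 and T3, against medians of all those genes of -0.01 to 0.02. A change of at least 1 was seen for 18, 14 and 19 of the 28 in M1, M2 and M3, where 4.71%, 3.12% and 2.98% of those genes reached it, and for 1, 0 and 0 in T1, T2 and T3, where 2.12%, 1.12% and 1.76% did. For 23 of the 28 the smallest change among metastasis lines exceeded the largest among primary lines, as it did for 11.5% of those genes. Of all 43 members, 42, 41 and 41 were higher with the drug in M1, M2 and M3, where 52.9%, 51.4% and 47.5% of all genes tested were.

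The largest single change was Mx1 in M3, 3.72 on that scale, with 1047 counts with PLX4720 and 48 with DMSO. In M1 it was Isg15, at 2.61, and in M2 Ifit3, at 2.50. The members that changed most in 1 metastasis line tended to do so in another: over the 43 genes Spearman's rho was 0.56 to 0.74 between pairs of metastasis lines, 0.49 to 0.68 between primary lines and 0.05 to 0.33 across sites. All genes gave 0.47 to 0.58 between metastasis lines, 0.45 to 0.64 between primary lines and 0.24 to 0.50 across sites. The 43 include the 15 members that passed the filter through metastasis libraries alone. On this scale those are held near 0 in primary lines, so the low values across sites partly follow from the scale. These genes share libraries and depth, so the values describe these lines.

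Summed over the 43 genes, the level was 1611, 746.9 and 6746 TPM in M1, M2 and M3 with PLX4720, against 538.6, 315.8 and 2671 TPM with DMSO. In the primary lines T1, T2 and T3 the sum was 434, 421 and 280.3 TPM with PLX4720 and 344, 369.7 and 248.7 TPM with DMSO. M3 with DMSO was thus above M1 and M2 with the drug, and M2 with DMSO lay within the range of the primary lines. Bst2 was 2069 of the 6746 TPM of M3 with PLX4720 and Isg15 was 725, while Ifi27 led in M1 and M2, and the top 3 genes of each primary library came from Bst2, Trim25, Samd9l and Ifit2.

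**Figure D4:**
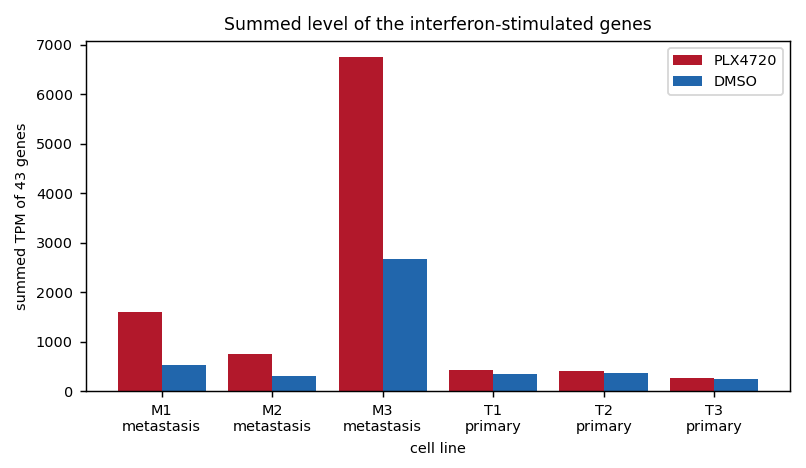
Summed TPM of the 43 genes in each line, PLX4720 (red) left of DMSO (blue), metastasis lines left of primary lines. M3 reaches 6746 TPM with PLX4720 and 2671 with DMSO, and the primary lines stay between 248.7 and 434 TPM.

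The second question is how the sites differed whatever the drug did. With PLX4720, 23 of the 40 members tested were higher in metastasis lines and none lower (edgeR, 33 and 0 at an unadjusted p under 0.05), where 5.62% of 15276 genes were higher and 7.88% lower. With DMSO, 15 of 40 were higher and none lower (edgeR, 24 higher and 1 lower at an unadjusted p under 0.05), where 4.64% of 14992 genes were higher and 7.49% lower. Members that pass the filter through metastasis lines alone had to differ, and among the 28 others 13 were higher with PLX4720 and 7 with DMSO. Their median log2 differences were 2.36 with PLX4720 and 1.51 with DMSO, each against a median near 0 over all genes. In 21 of those 28 every metastasis library lay above every primary library with PLX4720, and in 11 with DMSO, where 13.8% and 12.4% of the 15151 genes of that filter did so. In 1 member, Tlr3, every metastasis library with DMSO lay below.

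Trim30a, a TRIM protein of rodents, and Ifit1, an RNA-binding IFIT protein, passed the filter through metastasis lines alone, so their levels are given with no test. Trim30a had 37.3, 32.1 and 49.1 CPM in M1, M2 and M3 with PLX4720 and 6.80, 6.01 and 10.7 CPM with DMSO. In primary lines it had 1, 0 and 1 counts with PLX4720 and 2, 0 and 0 with DMSO. Ifit1 had 135, 19.1 and 441 CPM in M1, M2 and M3 and 0.288, 0.109 and 0.160 CPM in T1, T2 and T3 with PLX4720. It had 31.4, 4.49 and 90.5 CPM in M1, M2 and M3 and 0.0557, 0.158 and 0.176 CPM in T1, T2 and T3 with DMSO. Among the 28 others, Ifi27 was higher in metastasis lines by 3.03 ± 0.40 with PLX4720 and 2.60 ± 0.38 with DMSO (edgeR adjusted p = 0.00633 and 0.00918). Of the calls among those 28, 2 of 13 with PLX4720 (Parp10 and Ifi27) and 1 of 7 with DMSO (Ifi27) held in each fit without 1 line. With PLX4720 the count of 23 was 10, 6 and 11 without T1, T2 and T3 and 15 and 14 without M1 and M3. With DMSO the count of 15 was 3, 3 and 5 without T1, T2 and T3 and 5 and 9 without M1 and M3. No share over all genes is given for these smaller fits. Trim30a, Ifit1 and Parp10 were named after their values were seen.

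Rsad2, Oas2, Ifi44 and Sp100 were at 0 to 4 counts in every primary library and reached 2740, 554, 9000 and 260 counts in M3 with PLX4720, and no fold is given for them. M3 was the highest of the 6 lines for 42 of the 43 members with PLX4720 and 37 with DMSO, where it led for 17.2% and 14.5% of all genes. The 43 include the 15 members that passed the filter through metastasis libraries alone, for which a primary line could hardly lead. Among the metastasis lines alone M3 was the highest for 42 and 41 and M2 the lowest for 41 and 38. For these counts the share over all genes was not taken. M2 and M3 are lines whose tables share a number, and summed fibroblast and stellate markers were highest in M2 with PLX4720. The part of cell type in these differences was not tested.

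The relay that feeds these genes was looked at from lists of its ligands, receptors, factors, sensors with their adaptors, and brakes. Interferon transcripts were scarce: Ifnb1 had 0, 1 and 14 counts in M1, M2 and M3 with PLX4720, 0, 0 and 2 with DMSO and 0 in all 6 primary libraries, and no other ligand listed (Ifna4, Ifne, Ifnl2, Ifnl3, Ifng) passed 7 counts in a library. Interferons that are not in this list were not analysed here. Of the 12 ligands and receptors 6 were tested, and over all 6 lines Ifnar2 and Ifngr1 rose. In metastasis lines 3 rose (Ifnar2, Ifngr1 and Il10rb) and 1 fell (Ifngr2), and in primary lines 2 rose (Ifngr1 and Ifngr2). Ifngr1 changed by 0.44 ± 0.12 in metastasis and 0.66 ± 0.12 in primary lines (edgeR adjusted p = 0.0283 and 0.0158) and Ifnar2 by 0.48 ± 0.10 in metastasis and -0.02 ± 0.10 in primary lines (0.00856 and 0.946). Ifngr2 went opposite ways, with -0.39 ± 0.10 in metastasis and 0.83 ± 0.11 in primary lines, a difference of -1.22 ± 0.15 (edgeR adjusted p = 0.00692).

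Of 10 kinases, STAT and IRF factors 6 rose in metastasis lines (Jak1, Stat2, Irf1, Irf5, Irf7 and Irf9) and 1 in primary lines (Stat2) (edgeR). Stat2, the subunit that brings the activating domain to the ISRE, stood at 45.5, 14.95 and 90.2 CPM in M1, M2 and M3 with PLX4720 and 11.3, 5.27 and 23.0 CPM with DMSO. The primary lines T1, T2 and T3 held 10.8, 10.3 and 13.8 CPM with PLX4720 and 6.91, 8.32 and 7.46 CPM with DMSO. Its change was 1.84 ± 0.15 in metastasis and 0.62 ± 0.15 in primary lines (edgeR adjusted p = 0.000124 and 0.0411), with a difference of 1.22 ± 0.21 (adjusted p = 0.0214). Irf5 changed by 2.08 ± 0.19 in metastasis lines (edgeR adjusted p = 0.000222). Irf7 and Irf9 are themselves interferon-induced.

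A list of 9 further sensors, adaptors and kinases held 7 that were tested, all but the sensors Tlr7 and Tlr9. In metastasis lines 1 rose (the kinase gene Ikbke, 0.73 ± 0.20) and 1 fell (Tmem173, which encodes STING, -0.71 ± 0.20) (edgeR adjusted p = 0.0359 and 0.0361). Tmem173 stood at 30.6, 19.3 and 26.5 CPM in M1, M2 and M3 with PLX4720 and 33.7, 30.0 and 67.0 CPM with DMSO, and at 0.288, 0.109 and 1.18 CPM in T1, T2 and T3 with PLX4720 and 0.362, 0.132 and 1.84 CPM with DMSO. Of 9 tested brakes on the response, 2 rose (Adar and Samhd1) and 2 fell (Rnaseh2a and Rnaseh2c) in metastasis lines, and 1, Socs1, fell in primary lines. Samhd1, which degrades nucleotides, and Adar, which edits double-stranded RNA, differed between the sites by 1.06 ± 0.15 and 0.66 ± 0.14 (edgeR adjusted p = 0.0112 and 0.0435).

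**Figure D5:**
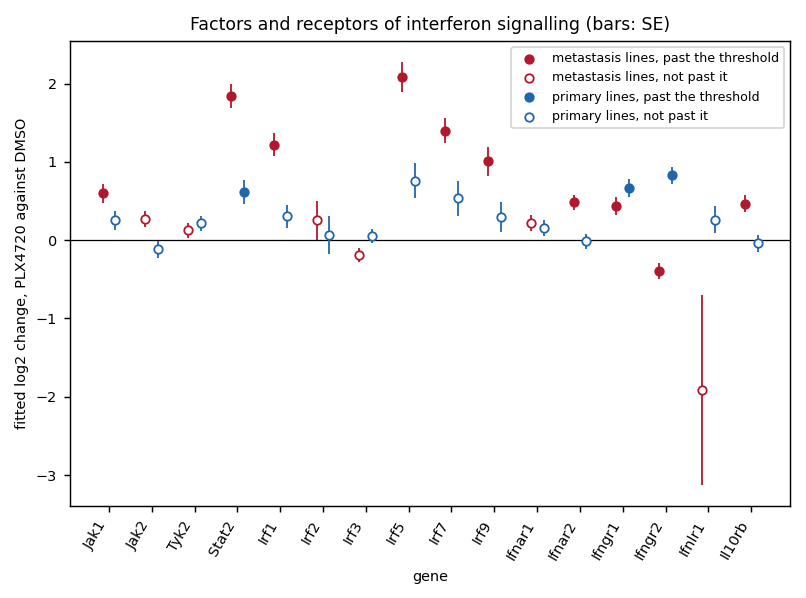
Fitted log2 change with PLX4720, with bars of 1 SE, of the kinases, STAT and IRF factors and of the receptors, metastasis lines (red) left of primary lines (blue). Filled symbols were called. Irf5, Stat2 and Irf7 are highest in metastasis lines, and Ifngr2 is below 0 there and at 0.83 in primary lines.

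Markers of other cells were read beside these results. The 15 leukocyte markers summed to 9.46 to 19.2 CPM in metastasis lines with PLX4720 and 27.1 to 46.6 CPM with DMSO, and to 48.8 to 58.6 CPM in primary lines with PLX4720 and 49.2 to 62.9 CPM with DMSO, with Tyrobp, Adgre1 and Ms4a1 at 0 throughout. Within a group 9 to 11 of the 15 were under 10 counts in every library, and in metastasis lines the sum was lower with the drug than with DMSO. The sums hide opposite moves of single markers. In primary lines Cd53 fell by -4.355 ± 0.787 and Csf1r rose by 1.22 ± 0.26 as log2 (edgeR adjusted p = 0.0172 and 0.0264). In metastasis lines Cd53, Ptprc and Cd14 fell, by -3.50, -2.86 and -1.22, and Csf1r was not called. The summed fibroblast and stellate markers did move with the drug, at 2195 to 9028 CPM in metastasis lines with PLX4720 against 539 to 3123 CPM with DMSO. In metastasis lines Col1a1, Col1a2 and Pdgfrb rose, by 4.14, 1.71 and 1.66 as log2 (edgeR), and Pdgfra, Dcn and Thy1 were not called. Lrat and Reln were under 10 counts in every metastasis library. The 5 endothelial markers summed to 0.394 to 2.14 CPM in metastasis lines with PLX4720 and 0.494 to 1.10 CPM with DMSO. Primary lines ranged more widely, from 0.409 to 37.0 CPM with PLX4720 and 0.316 to 75.0 CPM with DMSO. Among these 5, Cdh5 fell in primary lines (-1.69 ± 0.41, edgeR adjusted p = 0.0423) and Tek rose in metastasis lines (2.48 ± 0.47, 0.0122). The part of all these markers in the result was not tested.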

How the data were processed

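RNA-seq was analysed from 12 libraries of 6 mouse cell lines. The deposited counts are fragments per gene from featureCounts 1.5.2 and the Ensembl 84 annotation of GRCm38, per the file headers. No aligner was given in these sources. The deposited exon length of each gene, another column of those tables per the file headers, served for TPM. The recorded counting command has no strand option, so genes that overlap on opposite strands are uncertain. There were 0 value columns without a sample.

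From the counts, edgeR 4.0.16 (R 4.3.3, limma 3.58.1) with filterByExpr and TMM gave the quasi-likelihood test, with Benjamini-Hochberg adjustment over all genes tested and a threshold of 0.05. The response to PLX4720 was fitted on all 12 libraries blocked by cell line, with a drug term per site (4 residual degrees of freedom), and the sites were compared within a treatment on 6 libraries (4 residual degrees of freedom). SE is the absolute log2 change divided by the square root of F. Line changes are differences of log2(CPM + 1). The fits were tested on simulated data. DESeq2 1.42.0 was an alternative, beside other scalings, filters, blocks and fits without a line.

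Both libraries of a line are paired by the label, and around their group means they correlated at 0.839 to 0.923. Equal numbers in both sites (T1 and M1, for example) correlated at -0.0982 to 0.012 and do not pair. No 2 libraries of a group agreed within sampling noise (chi-square per degree of freedom of 126.8 or more). Since the labels do not name separate animals, p-values measure the spread between these lines only.

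Members and lists were chosen with earlier results of these data known. Values by library are given, in each of 8 roles, for the member with the highest mean TPM, that with the smallest p over all lines and that with the smallest p for the difference between sites, and for members that fell. In the pathway lists up to 3 genes with the smallest p over all lines were named. One pathway gene is not reported here. Gene counts depend on depth, and low values carry counting error.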

Additional observations from a re-analysis of the deposited data

Results flagged for a closer look

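For 15 genes the change with PLX4720 differed between metastasis and primary lines in the test of the difference itself (edgeR, adjusted over all genes), each larger in metastasis lines. The differences of log2 changes, metastasis minus primary, were 2.24 for Ifit3, 1.51 for Usp18, 1.18 for Herc6 and 1.18 for Oasl1. Among sensors they were 0.85 for Ifih1 and 0.90 for Ifi204. Among direct effectors they were 0.91 for Eif2ak2, 1.30 for Bst2 and 1.32 for Samd9l. For the PARP group they were 0.95 for Parp9, 1.21 for Parp10, 1.41 for Parp14 and 1.17 for Dtx3l. Trim21 had 1.05 and Ifi35 0.84. Parp9 and Dtx3l share 458 exon bases on opposite strands, 9.40% of Parp9 exon length and 8.00% of that of Dtx3l. Of the 15, Parp14 was called in every fit without 1 line. The metastasis lines also lacked hepatocyte markers, and site and cell type cannot be told apart.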

How the results depend on the processing

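Scaling by DESeq2 size factors or library totals left all 6 counts of called members within 1.5 times. Without the line as a block (no replicate block), edgeR called 0 members over all 6 lines, 0 in primary lines, 0 in metastasis lines and 0 for the difference between sites, with 7, 0, 8 and 1 at an unadjusted p under 0.05, against 33, 9, 39 and 15 with it; both libraries of a line correlated at 0.839 to 0.923 around their group means. The difference between sites was called for 25 members with no filter on low counts, for 26 by DESeq2 and for 10 with M2 and M3 summed as 1 line; the cause was not tested. Pairing equal numbers across sites (replicate block) gave 8 members with DMSO in place of 15, and 17 with PLX4720 in place of 23.

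Leaving out 1 line at a time gave 24 to 33 members over all 6 lines, 0 to 11 in primary lines, 33 to 38 in metastasis lines, 2 to 18 for the difference between sites, 3 to 16 between sites with DMSO and 6 to 26 with PLX4720. Of the calls, 21 of 33, 0 of 9, 32 of 39, 1 of 15, 3 of 15 and 5 of 23 held in each such fit; of the site calls that held, 2 of the 3 with DMSO and 3 of the 5 with PLX4720 are members that passed the filter through metastasis lines alone. For the 19 genes described by library, alternatives were counted for the response to PLX4720 and for its difference between sites. Of these values 877 kept direction and call, 8 gained a call, 138 lost one and none changed sign. All 51 calls of that kind were lost without the block, and 27 held in every other alternative. The calls of these genes between sites within a treatment are not in these counts. Fits without a line were read for the members, not for the pathway genes, and the share of all genes called in them is not given. With 1 library per line and treatment, members near 0 counts in primary lines limit what can be said of them.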
